A study of Rattus norvegicus with 9 samples.

Results

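The MHC class II presentation genes are 8 rat genes: Cd74, RT1-Da, RT1-Db1, RT1-Ba, RT1-Bb, RT1-DMa, RT1-DMb, and Ciita. They were chosen by symbol, as every non-control probe whose gene name in the array files equals one of these names, which gave 10 probes for 8 of the 19293 gene symbols on the array (30367 probes in all). For RT1-Db1 and RT1-Bb, which have 2 probes each, the probe with the higher mean signal over the 9 arrays represents the gene. All animals were Sprague Dawley rats, male according to the methods, and the tissue was the infarcted hemisphere of the brain at day 14. The Sham group had the operation without ischemia and received solvent, the I/R group had the middle cerebral artery closed for 2 h and then reperfused, and the DHI group had the same ischemia/reperfusion and Danhong injection (DHI, a preparation of Chinese herbal medicine) by tail vein for 14 days. Each group holds 3 rats with 1 single-color Agilent array each, and the ages were not given in the sources used here. The model is an injury of 1 vascular territory read in a whole hemisphere, so each array mixes infarct, border, and intact tissue.

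MHC class II molecules are pairs of an alpha and a beta chain that carry peptides from the endosome to the cell surface, where CD4+ T cells read them. In the rat the RT1-D pair (RT1-Da and RT1-Db1) and the RT1-B pair (RT1-Ba and RT1-Bb) are the classical chains. Cd74 encodes the invariant chain, which fills the groove of a new class II pair and takes it to the endosome, and RT1-DMa with RT1-DMb forms the catalyst that swaps the last fragment of the invariant chain for a peptide. Ciita is the coactivator that sets the transcription of all of them through the X and Y boxes of their promoters, which are bound by the RFX and NF-Y complexes. In brain, class II is low in resting microglia and is known to rise on activated microglia and on macrophages and dendritic cells that enter injured tissue.

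The promoters are shown first because the members are known to share the X and Y boxes. Whether these letters bear on the values of the arrays was not tested. Of the 8 members, 6 had an entry in the RefSeq promoter table (build GRCr8, 250 bases before to 50 after the start), and RT1-DMb and Ciita had none. Each stretch is written 5′ to 3′ on the strand of its gene, with the letters of the X box match (AGNNAC, or the looser GNNAC) and of the Y box match (ATTGG) in capitals.
RT1-Da, chr20:4515324-4515378, + strand: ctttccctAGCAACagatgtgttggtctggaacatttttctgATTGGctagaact
RT1-Db1, chr20:4560230-4560283, - strand: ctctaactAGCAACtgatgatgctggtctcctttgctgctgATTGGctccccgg
RT1-Bb, chr20:4604167-4604220, - strand: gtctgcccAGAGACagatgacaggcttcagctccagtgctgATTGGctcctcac
RT1-Ba, chr20:4576973-4577026, + strand: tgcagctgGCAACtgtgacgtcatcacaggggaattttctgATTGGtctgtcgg
RT1-DMa, chr20:4712387-4712440, - strand: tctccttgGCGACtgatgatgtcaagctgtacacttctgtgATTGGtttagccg
Cd74, chr18:56527127-56527181, + strand: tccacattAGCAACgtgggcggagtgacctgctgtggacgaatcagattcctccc

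The search for AGNNAC followed after 20 to 36 letters by ATTGG, on both strands, matched 3 of the 6 windows (RT1-Da, RT1-Db1, and RT1-Bb), and 3.26% of all 33469 promoter windows of the table. With GNNAC in place of AGNNAC, RT1-Ba and RT1-DMa matched as well, 5 of 6 against 9.2% of all windows. This looser form was chosen after the windows had been read. In all 5 stretches 27 or 28 letters lay between the X and Y letters, and the X letters began 76 to 113 bases before the start. AGNNAC overlaps GNNAC and by itself is frequent (90.4% of windows), and ATTGG by itself lay in 37.5%. RT1-Ba also held TGACGTCA, which lay in 1.83% of windows. The Cd74 window held AGCAAC, the X letters of RT1-Da and RT1-Db1, 71 bases before the start, but no ATTGG within the distance searched. A match is a description of letters and no match concerns only this window.

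Before the members are described, the arrays that stand apart are given. Sham and I/R arrays lay on 1 slide and were read in 1 scan, and all 3 DHI arrays lay on another, so the injection and the slide cannot be told apart. The choroid plexus transcript Ttr (transthyretin) was at 6.53, 7.05, and 6.20 on I/R 3, DHI 1, and DHI 3, at 2.88 on DHI 2, and between -1.65 and 0.19 on the other 5 arrays, in log2 units relative to the 75th percentile of each array. That unit is used for every level in the text: 0 is the signal that 75% of the spots of an array do not exceed, and 1 unit is a doubling. Between 75.2% and 78.9% of the probes of an array were well above background and no probe was saturated. Neuron, astrocyte, and oligodendrocyte markers were measured on all arrays. In bulk tissue, fewer cells of a type and less RNA per cell cannot be told apart.

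I/R versus Sham asks what ischemia/reperfusion did to the class II genes by day 14. All 6 members that could be tested rose, by 4.77- to 11.8-fold, and the lowest I/R array was above the highest Sham array for each of them. They are the RT1-D pair, RT1-Bb, both RT1-DM chains, and Cd74. The remaining members, RT1-Ba and Ciita, were not well above background on all arrays of any group. Here and below a probe is called at background in a group whose arrays all lack the well-above-background flag of the scanner software. The thresholds for a call were those of the methods, 0.05 for the p-value of limma and 1.5 for the fold change (FC). They called 43.1% of the 23747 probes tested in I/R versus Sham, 20.8% as higher in I/R, so a call in itself is frequent in this comparison. After adjustment over all probes all 6 members were still called, where 31.5% of the probes were and 16.4% as higher, but the adjusted p-values lay near the threshold and 0 of 6 passed when any of the 3 Sham arrays, I/R 1, I/R 2, or DHI 3 was left out of the model. The t-test of the methods called the same number, 6 of 6, with 39.8% of all probes, and 26.7% of all probes had every I/R array above every Sham array. The median log2 FC of the 6 members was 2.93 (range 2.25 to 3.56), and the median over all probes tested was -0.10.

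Cd74, probed at chr18:56765468-56765527 of rn4 (the build of the array files), stood at -0.77, -1.29, and -1.64 on Sham 1, 2, and 3, at 2.95, 2.41, and 1.11 on I/R 1, 2, and 3, and at 2.98, -0.50, and 0.97 on DHI 1, 2, and 3. All I/R and all DHI arrays were above all Sham arrays, and DHI 1 was the highest of the 9. The log2 FC of Cd74 was 3.39 ± 0.84 (SE) in I/R versus Sham, 10.5-fold, with an adjusted p of 0.0396 in limma.

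For RT1-Da, the alpha chain of the RT1-D pair (chr20:4641104-4641163), the values were -2.83, -3.23, and -3.76 in Sham, 0.68, 0.08, and -1.09 in I/R, and 0.58, -3.22, and -1.86 in DHI. Sham and I/R did not overlap, while DHI 2 fell within the Sham range and DHI 1 within the I/R range. In I/R versus Sham RT1-Da rose by 3.16 ± 0.90 (SE, log2), 8.95-fold (adjusted p = 0.0406, limma).

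RT1-Db1, its beta chain (chr20:4672665-4672724), was at -2.36, -2.78, and -3.04 in Sham, 0.24, -0.46, and -1.20 in I/R, and 0.51, -2.29, and -1.65 in DHI. As for Cd74, the 3 DHI arrays were all above the 3 Sham arrays, here by a small margin for DHI 2. The increase in I/R versus Sham was the smallest of the 6, 2.25 ± 0.69 (SE, log2), 4.77-fold (adjusted p = 0.0437, limma). The other probe of RT1-Db1 (chr20:4671516-4671575) gave a larger increase, 3.52 ± 1.00 (SE, log2).

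RT1-Bb, the beta chain of the RT1-B pair (chr20:4732187-4732246), showed -2.45, -2.87, and -3.41 in Sham, 0.60, 0.06, and -1.35 in I/R, and 0.09, -2.97, and -2.35 in DHI. DHI 2 again lay among the Sham arrays, and DHI 3 was above them by less than the width of the Sham range. The log2 FC in I/R versus Sham was 2.68 ± 0.81 (SE), 6.42-fold (adjusted p = 0.0429, limma).

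The alpha chain of the RT1-B pair, RT1-Ba (chr20:4700973-4701032), was dim on all 9 arrays (none well above background), with values from -9.95 to -9.16. This probe therefore gives no fold, and it cannot say whether RT1-Ba followed RT1-Bb.

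RT1-DMb (chr20:4830313-4830372) had values of -1.45, -1.83, and -1.64 in Sham, 2.73, 2.08, and 0.96 in I/R, and 1.57, -1.35, and -0.92 in DHI. Its partner RT1-DMa (chr20:4844372-4844431) was at -0.50, -0.76, and -0.55 in Sham, at 2.78, 2.39, and 1.09 in I/R, and at 1.61, -0.61, and -0.40 in DHI. Both chains were tight in Sham (range 0.39 for RT1-DMb and 0.26 for RT1-DMa) and spread in I/R and DHI. RT1-DMb had the largest increase of the 6 in I/R versus Sham, 3.56 ± 0.75 (SE, log2), 11.8-fold, and RT1-DMa increased by 2.69 ± 0.63, 6.47-fold (adjusted p = 0.0396 for both, limma).

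The coactivator Ciita (chr10:5087176-5087235) was well above background on I/R 1, I/R 2, and DHI 1 only. These arrays gave -6.19, -6.45, and -6.52, whereas I/R 3 was at -7.63, Sham at -9.13, -8.62, and -9.43, and DHI 2 and DHI 3 at -8.58 and -9.02. The I/R mean, which includes the array on which Ciita was dim, was at least 1.96-fold above the lowest signal that counts as well above background on the Sham arrays. Ciita was not among the probes tested, so no fold beyond this bound is given.

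**Figure D1:**
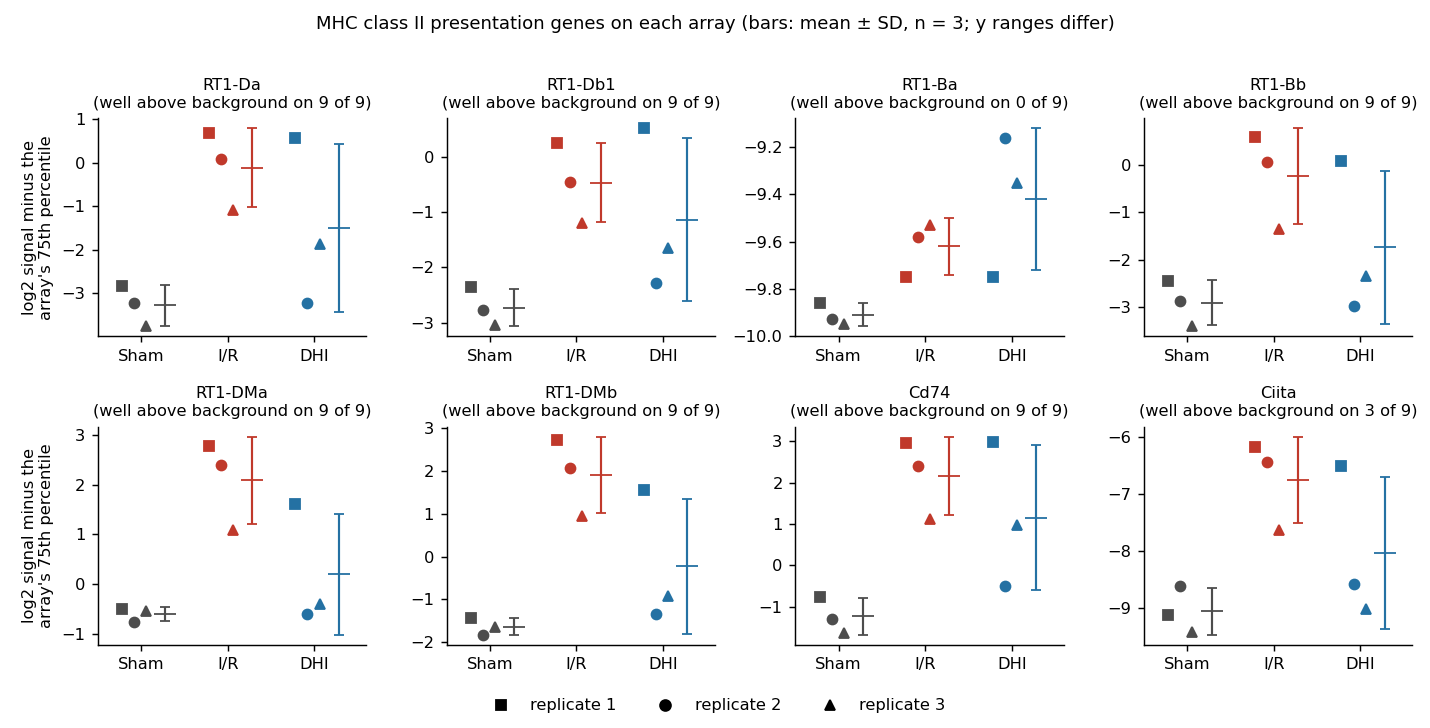
Level of each class II presentation gene on every array, as log2 signal minus the 75th percentile of the array (vertical axis, its range differing between panels), for Sham, I/R, and DHI; the shape of a point is the replicate number, and the bars give mean ± SD of 3 arrays. For the 6 genes well above background on 9 of 9 arrays, every I/R point lies above every Sham point and DHI 1 lies apart from DHI 2 and DHI 3.

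The order of the arrays recurred from gene to gene. I/R 1 was the highest and I/R 3 the lowest of the I/R arrays for 6 of 6 members tested, DHI 1 was the highest and DHI 2 the lowest of the DHI arrays for 6 of 6, and Sham 1 was the highest Sham array for 6 of 6. Relative to each gene's Sham mean, the median of the 6 members was 3.73, 3.17, and 1.94 on I/R 1, 2, and 3, and 3.23, 0.17, and 0.90 on DHI 1, 2, and 3. DHI 1 therefore lay within or above the I/R range for all 6, DHI 2 lay within the Sham range for 3 of 6 (RT1-Da, RT1-Bb, and RT1-DMa), and DHI 3 lay between the Sham and the I/R arrays for all 6. These are the same arrays measured through 6 genes, not 6 replicates.

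The members also differed from each other within an array. On DHI 3 Cd74 was 2.21 above its Sham mean, RT1-Da 1.41, RT1-Db1 1.08, RT1-DMb 0.72, RT1-Bb 0.56, and RT1-DMa 0.21. Cd74 and RT1-DMa were about as far apart on DHI 1, at 4.22 and 2.21, and closer on I/R 3, at 2.34 and 1.70. On DHI 2 they were at 0.73 and -0.01. These differences between genes were not tested.

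DHI versus I/R asks whether the injection changed the response, and its estimates were negative for all 6 members. The 2 chains of the RT1-DM catalyst were called lower: RT1-DMb fell by 2.16 ± 0.75 (SE, log2), 4.46-fold, and RT1-DMa fell by 1.89 ± 0.63, 3.71-fold. The comparison as a whole called 21.9% of the probes, 10.5% as lower in DHI, and the 2 of 6 members stand against that share. Neither call held after adjustment over all probes (adjusted p = 0.196 for both in limma), and 0.00421% of the probes did. The t-test of the methods called 0 of 6, with 1.97% of all probes called.

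The other 4 members were not called, with log2 FC of -1.51 ± 0.81 (SE) for RT1-Bb, -1.39 ± 0.90 for RT1-Da, -1.0 ± 0.84 for Cd74, and -0.67 ± 0.69 for RT1-Db1. A p that misses the threshold does not show that these 4 did not change. For all 6 members the DHI arrays overlapped the I/R arrays, while 4.02% of all probes had every DHI array below every I/R array. DHI 2 and DHI 3 lay below all I/R arrays for each member, and DHI 1 did not. Without DHI 1, all 6 members were called lower in DHI, also after adjustment, with log2 FC from -3.06 (RT1-DMb) to -1.49 (RT1-Db1). Leaving out this array raised the calls over the whole array too, from 21.9% to 45.2% of the probes (19.1% as lower), and 40.1% passed after adjustment. Without DHI 2, DHI 3, I/R 1, or I/R 2 none was called. The calls over all probes fell there too, from 5211 to 939, 1127, 1381, and 1659. Without I/R 3 RT1-Bb was called beside the RT1-DM chains, and the calls over all probes rose to 7719. DHI versus I/R and I/R versus Sham share the I/R arrays, so the opposite signs of their estimates are not independent of each other.

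DHI versus Sham gave positive estimates for all 6 members, with a median log2 FC of 1.5 (range 0.80 to 2.38) against 0.02 over all probes. By representative probes Cd74 was the member called, at 2.38 ± 0.84 (SE, log2), 5.22-fold, where 3.58% of all probes were called and 2.52% as higher in DHI. Its adjusted p was 0.709 in limma, and no probe on the array passed after adjustment. The t-test of the methods called 0 of 6, with 1.89% of all probes. Every DHI array was above every Sham array for 3 of 6 (Cd74, RT1-Db1, and RT1-DMb), a pattern shown by 10.3% of all probes. RT1-Da was at 1.77 ± 0.90, RT1-Db1 at 1.59 ± 0.69, RT1-DMb at 1.41 ± 0.75, RT1-Bb at 1.17 ± 0.81, and RT1-DMa at 0.80 ± 0.63 (SE, log2), none of them called. The second probe of RT1-Db1 did meet the thresholds, at 2.53 ± 1.00 (SE, log2), 5.79-fold. It did not pass after adjustment (adjusted p = 0.709 in limma). The Cd74 call was lost without DHI 1 (log2 FC 1.47), without Sham 2 (2.36), and without Sham 3 (2.18). Over all probes 832, 344, and 557 were called there, against 849 with all arrays. Without DHI 2 the RT1-D pair and RT1-DMb were called beside Cd74 (log2 FC 3.21 for Cd74, 2.63 for RT1-Da). The share of all probes called then went from 3.58% to 10.6%. This comparison shares the Sham arrays with I/R versus Sham and the DHI arrays with DHI versus I/R.

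**Figure D2:**
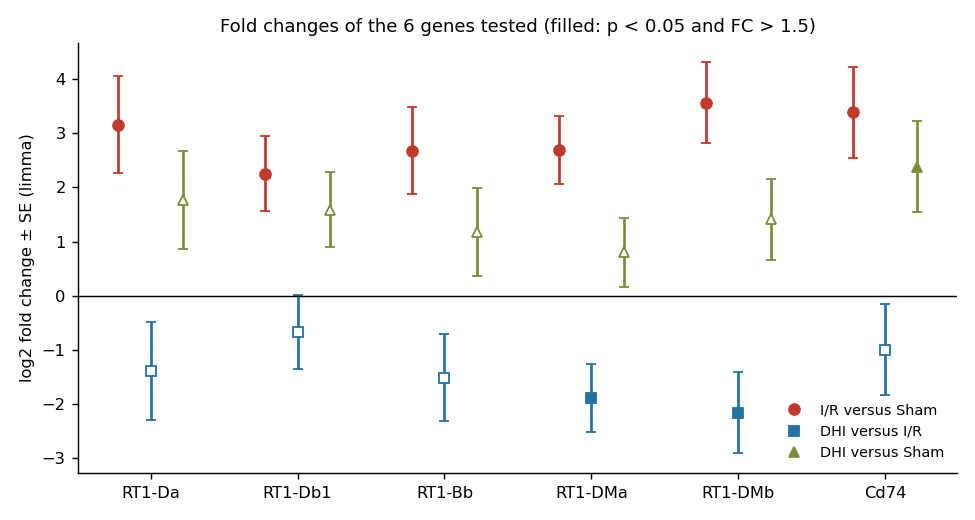
Log2 fold change ± SE from limma (vertical axis) of the 6 members tested, for the 3 pairs of groups; filled symbols mark calls. All 6 are filled in I/R versus Sham (2.25 to 3.56), the RT1-DM chains alone in DHI versus I/R (-1.89 and -2.16), and Cd74 alone in DHI versus Sham (2.38).

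The second probes of 2 genes did not track the representative ones. The second probe of RT1-Bb (chr20:4730533-4730583) was at background on the Sham arrays (-9.91, -9.62, -10.04), on I/R 1 and I/R 2 (-9.81, -9.65), or on DHI 3 (-9.44). On I/R 3, DHI 1, and DHI 2 it was well above background, at -0.90, 0.12, and -3.47. The lowest of these 3 arrays was thus above the highest of the other 6 by 5.97 log2 units, although the representative probe of RT1-Bb was higher on I/R 1 and I/R 2 than on I/R 3 and DHI 2. Among the 30367 probes this was the single one with those 3 arrays above the other 6 by more than 2 log2 units. A further probe, for LOC685752 on chromosome 11, was well above background on just the same 3 arrays, with a gap of 0.18.

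A weaker form of this was seen for RT1-Db1. Its second probe was at -3.68, -4.24, and -4.58 in Sham, -0.33, -0.99, and -0.63 in I/R, and 1.09, -2.98, and -3.01 in DHI. The difference between the 2 probes (second minus representative) was between -1.54 and -1.32 in Sham, and moved to 0.57 and 0.58 on I/R 3 and DHI 1, which are 2 of the 3 arrays on which the second RT1-Bb probe was bright. On DHI 2 the difference was -0.69, on I/R 1 and I/R 2 it was -0.57 and -0.53, and on DHI 3 it was -1.36, near Sham. The order within I/R changed with it: the representative probe was lowest on I/R 3, and the second probe was lowest on I/R 2. What sets the probes of a gene apart was not tested.

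**Figure D3:**
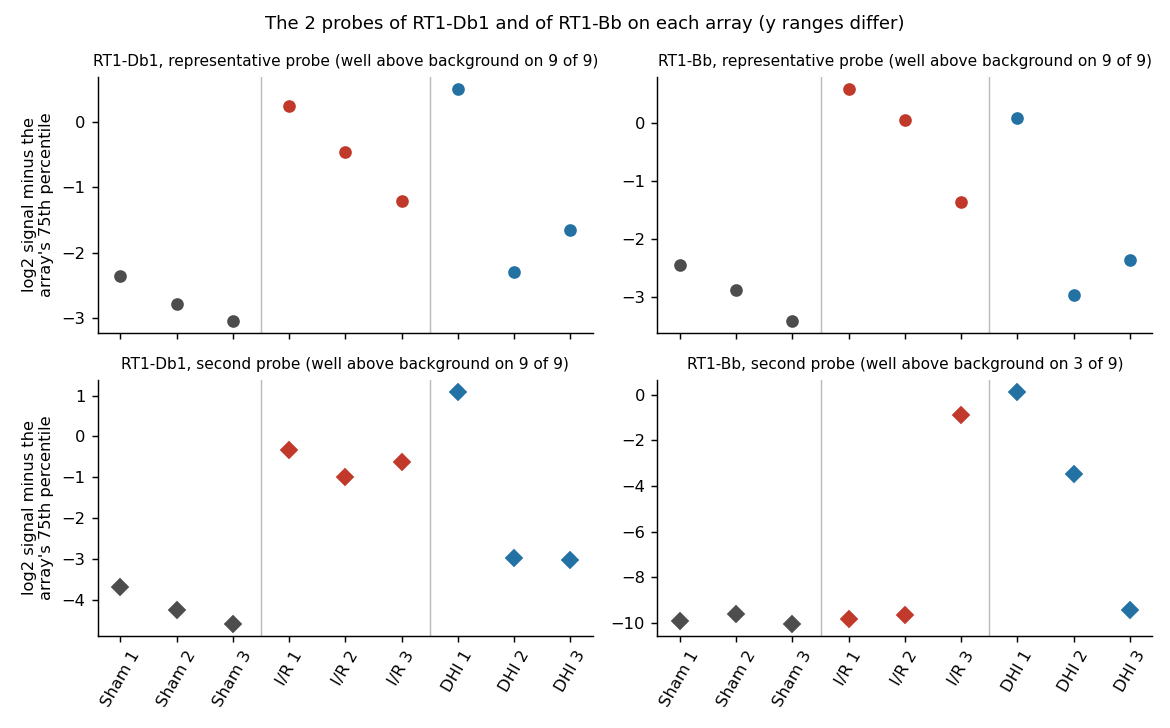
Log2 signal minus the 75th percentile of the array (vertical axis, its range differing between panels) for the representative probe (circles, top) and the second probe (diamonds, bottom) of RT1-Db1 and RT1-Bb on each of the 9 arrays, colored by group. The second RT1-Bb probe is near -10 on 6 arrays and between -3.47 and 0.12 on I/R 3, DHI 1, and DHI 2.

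Further class II chains and the factors that Ciita joins on the promoter formed 1 list. RT1-DOa, RT1-DOb, RT1-Ha, Rfx5, Rfxap, Rfxank, Nfya, Nfyb, Nfyc, and Creb1 were on the array, and 8 of these 10 were tested. Of those, 1 rose in I/R versus Sham, where 20.8% of all probes were called higher. It was Nfya (a subunit of NF-Y, 1.33 ± 0.31 (SE, log2), adjusted p = 0.0396 in limma). The 3 RFX subunits were not called: Rfx5 was at -0.08 ± 0.34, Rfxap at -0.32 ± 0.18, and Rfxank at 0.48 ± 0.19 (SE, log2). The median log2 FC of the 8 genes, RT1-DOb included, was -0.09, and the mean over the list stayed between 0.14 and 0.32 above Sham on the 6 I/R and DHI arrays. RT1-DOb, a chain of the DO heterodimer that restrains DM, was at 1.14 ± 0.80 and not called.

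Genes of the endosome that prepare peptide and cut the invariant chain were higher in I/R. Of 13 antigen processing genes tested, 10 rose, 1 fell, and 2 were not called, with a median log2 FC of 1.85. Over all probes 20.8% were called higher, and the median was -0.10. Ctsz (cathepsin Z) rose 25.5-fold, Ifi30 (the thiol reductase GILT) 20.5-fold, and Ctsh (cathepsin H) 9.86-fold, each with an adjusted p of 0.0396 in limma. The gene that fell was Mif, a cytokine that binds Cd74, at 1.96-fold lower. In DHI versus I/R 10 of the 13 were called lower and 1 (Mif) higher, none with adjustment, where 10.5% of all probes were called lower and 11.5% higher. The median was -1.32 against 0.10 over all probes. For Ctsz the log2 FC there was -2.88 ± 0.98 (SE), for Ifi30 -2.78 ± 1.02, and for Ctsh -2.16 ± 0.77.

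The interferon gamma route is the known inducer of Ciita. Ifng itself was at background throughout. Of 8 genes of the route tested, 5 rose in I/R versus Sham (4 after adjustment), where 20.8% of all probes were called higher. The other 3 were not called, and the median log2 FC was 1.61. The genes that rose include Irf8 (24.1-fold), a transcription factor of myeloid cells, and Ifngr1 (6.57-fold), the ligand-binding chain of the interferon gamma receptor. Irf1 (6.31-fold), which acts on a Ciita promoter, rose as well. The 3 arrays on which Ciita was well above background were also the ones with the highest Irf8 values, -1.88, -2.58, and -3.18, with I/R 3 next at -3.56. The same 3 arrays were the highest for Ifngr1 (4.14, 3.68, and 3.09) and for the astrocyte marker Gfap (2.92, 3.29, and 2.51). The pattern was thus not particular to Irf8. In DHI versus I/R 5 of the 8 were called lower, where 10.5% of all probes were. The median was -1.33 against 0.10 over all probes, and the adjusted p was 0.196 in limma for Irf8, Ifngr1, and Irf1.

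Costimulatory molecules, the other signal that a T cell takes from the presenting cell, were called higher in I/R for 4 of the 4 genes measured in both groups (3 after adjustment), with a median log2 FC of 2.46. Over all probes 20.8% were called higher in this comparison. Cd86, at background in all Sham samples and so not counted, was higher in I/R by at least 31.8-fold, Cd40 was 15.4-fold, and Icoslg 11.7-fold higher. With Cd86 included, 5 genes were tested, and DHI versus I/R called 4 lower, none with adjustment (median -2.35). Cd86 was 1 of these 4, at -3.29 ± 1.18 (SE, log2), but it passed the filter only through the I/R arrays. It was well above background on 2 of the 3 DHI arrays, so this value is not a measured fold.

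On the T helper side 9 of 12 genes were tested, and 7 of them were measured in both Sham and I/R. Of these 7, 5 rose in I/R versus Sham (5 after adjustment, median log2 FC 2.06), where 20.8% of all probes were called higher. Cd4, the coreceptor for class II, which rat macrophages and microglia can also carry, rose 9.79-fold. Its values were -5.97, -5.87, and -6.13 in Sham, -2.0, -2.64, and -3.45 in I/R, and -3.44, -5.66, and -5.39 in DHI. Lag3, another receptor for class II, rose 9.49-fold, and Cd3g, a chain of the T cell receptor complex, rose 6.55-fold. Cd247 rose 4.17-fold and Cd3d 1.5-fold. Cd3e and Lck were not called, at 1.15 ± 1.21 and -0.03 ± 0.20 (SE, log2). Of the tested genes not measured in both groups, Ctla4 was at background in I/R and at least 1.17-fold lower there. Cd5 was at background in Sham and at least 3.47-fold higher in I/R. Cd28 and Cd40lg were at background throughout. In DHI versus I/R 4 of the 9 were called lower and 1 higher (Ctla4), none with adjustment. Over all probes 10.5% were called lower and 11.5% higher. Cd5 is among the 4 and entered the test only through the I/R arrays, and Ctla4 entered it only through the Sham arrays.

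**Figure D4:**
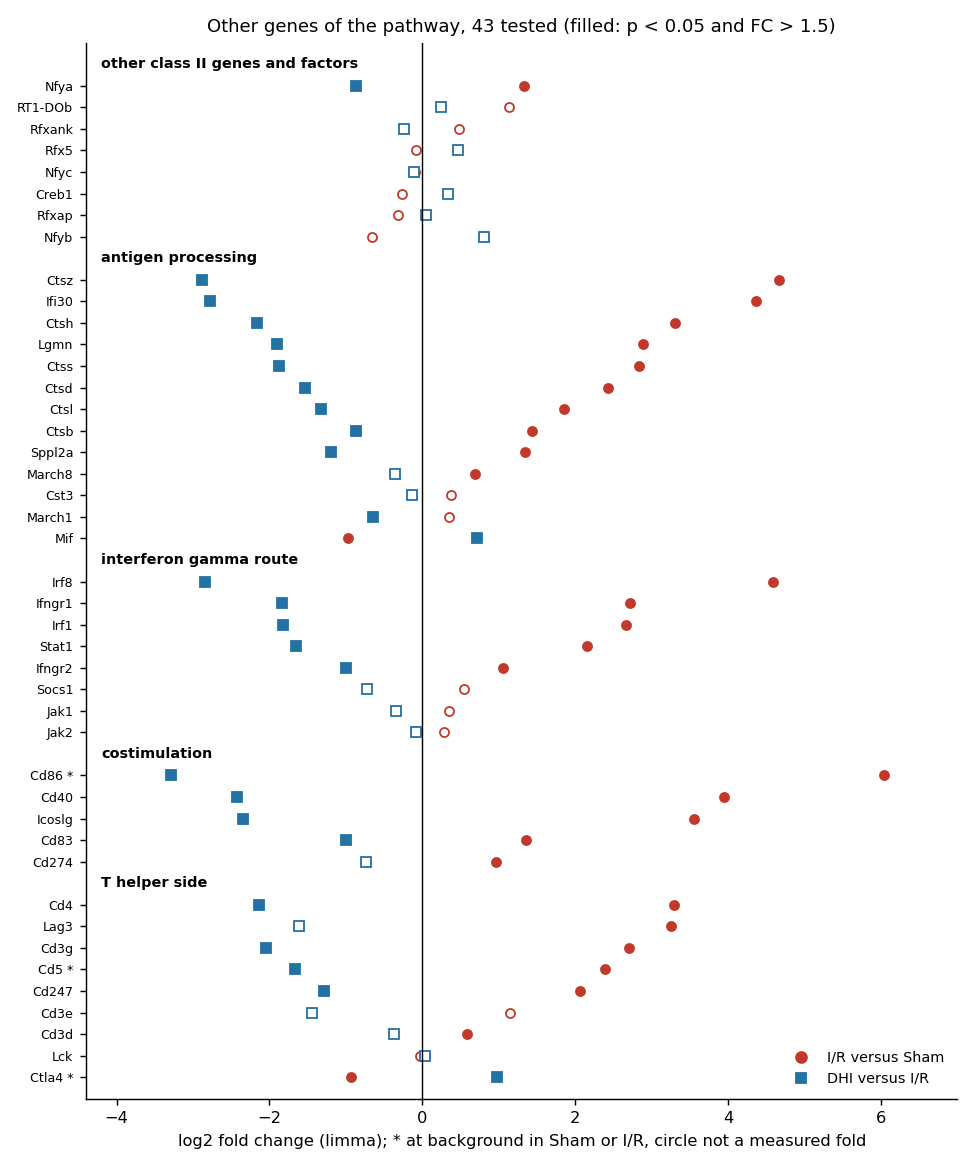
Log2 fold change from limma (horizontal axis) of the 43 genes tested from 5 lists of the class II pathway, in I/R versus Sham (circles) and DHI versus I/R (squares); filled symbols mark calls. The antigen processing, interferon, costimulation, and T helper genes lie mostly to the right in I/R versus Sham and the RFX subunits lie near 0. Asterisks mark genes at background in Sham or I/R (Cd86, Cd5, and Ctla4), whose circles are not measured folds. Nor is the square of Ctla4, and the squares of Cd86 and Cd5 include DHI arrays not well above background. The comparisons share the I/R arrays.

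Markers of cells that can carry class II were mostly higher in I/R as well, in a comparison that called 20.8% of all probes higher (16.4% after adjustment). All 6 microglia markers were tested, and 5 rose in I/R versus Sham (5 after adjustment, median log2 FC 2.89). Among those that rose were Csf1r (12.1-fold), Aif1 (10.5-fold), and Itgam (10.5-fold). The remaining microglia marker, Cx3cr1, had a negative estimate and was not called. Its highest I/R array (0.93) lay below its lowest Sham array (1.36). The macrophage markers rose for 4 of 5 tested (2 after adjustment, median 2.63), with Cd68 at 103-fold, Adgre1 (listed as Emr1) at 19.3-fold, and Mrc1 at 6.21-fold. Among the dendritic cell markers measured in both groups 3 of 5 rose (1 after adjustment, median 0.66), with Batf3 at 12.9-fold. Flt3 and Zbtb46 had negative estimates, -0.78 ± 0.42 and -0.19 ± 0.28 (SE, log2), and were not called. Clec9a and Itgax, at background in Sham, entered the test only through the I/R arrays and are not counted; they were at least 7.51-fold and at least 2.18-fold higher in I/R. Of the 6 B cell markers 3 were tested and none was called (median 0.31), and Ms4a1 and Cr2 were at background throughout. Cd79b, at background in Sham (-9.90, -9.99, and -9.31), was not tested either. It was well above background on 2 I/R arrays and 1 DHI array, with -4.78, -6.70, and -7.95 on I/R 1, 2, and 3.

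By array, the mean of the macrophage list relative to Sham was 3.55, 3.34, and 2.34 on I/R 1, 2, and 3, and 3.15, -0.31, and 0.07 on DHI 1, 2, and 3. The microglia list gave 3.04, 2.5, and 1.54 in I/R, and 2.12, 0.15, and 0.40 in DHI. These lists thus ran I/R 1, I/R 2, I/R 3 and DHI 1, DHI 3, DHI 2 from high to low, the same order as the class II members. The order was not particular to them: the astrocyte list had it too (1.1, 1.01, and 0.81 in I/R, 0.79, 0.07, and 0.19 in DHI), and the neuron list had its inverse (-3.78, -3.18, and -1.18 in I/R, -2.01, 0.28, and -0.46 in DHI). On DHI 3, where Cd74 was 2.21 above Sham, the macrophage list was at 0.07 and the microglia list at 0.40. The choroid plexus list (3 of 4 genes tested) was at 4.65 on that array and had another order over the arrays, with 1.04, 1.99, and 4.96 in I/R and 6.44, 1.58, and 4.65 in DHI. Neuron markers fell for 5 of 5 in I/R versus Sham (4 after adjustment), and red blood cell genes for 3 of 3 (0 after adjustment). Over all probes 43.1% were called in either direction, 20.8% as higher. After adjustment 31.5% were called in either direction. The part of any of these cell types in the class II values was not tested.

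**Figure D5:**
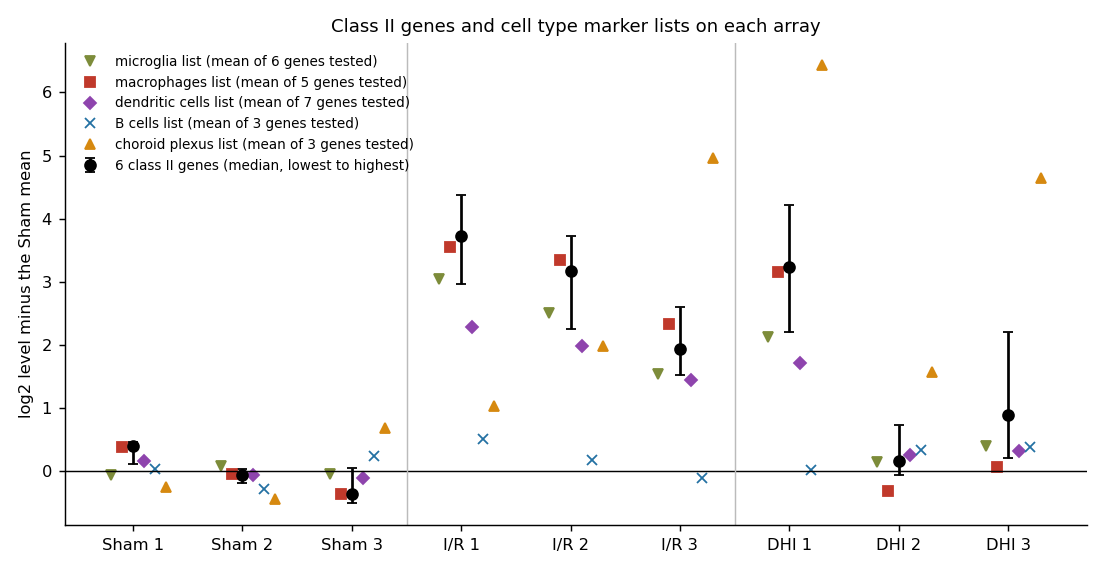
Median of the 6 class II members on each array relative to their Sham means (black, with the lowest and the highest member as bars) beside the mean of 5 cell type marker lists (vertical axis, log2 level minus the Sham mean); the dendritic cell list holds Clec9a and Itgax, at background in Sham. The members, the microglia list, and the macrophage list are high on the I/R arrays and on DHI 1 and near 0 on DHI 2, while the B cell list stays within 0.52 of 0 and the choroid plexus list peaks on DHI 1 (6.44).

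The genes most like Cd74 over the 9 arrays were searched among 15583 genes, by the root mean square difference after each gene's own mean was removed. RT1-Da was the nearest of all (0.28 log2 units), and RT1-Db1 and RT1-Bb took ranks 34 and 35 (0.54 each), RT1-DMb rank 87 (0.59), and RT1-DMa rank 561 (0.76). The 5 nearest genes that are not class II members were Ube2c (0.43), Mcm3 (0.43), Ckap2 (0.45), Cdca3 (0.45), and Neurl3 (0.45). Ube2c encodes a ubiquitin-conjugating enzyme of mitosis and Mcm3 a subunit of the replicative helicase. Mcm3 stood at -2.99, -3.45, and -3.12 in Sham, 0.79, 0.80, and -0.55 in I/R, and 0.24, -2.71, and -1.75 in DHI. On DHI 3 it lay between its Sham and its I/R values, as Cd74 did. Mcm3 was picked for its likeness to Cd74 over the same 9 values, so this is not a separate result. This is a description over 9 arrays, and the values share each array's scaling.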

How the data were processed

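The 9 arrays were grouped by the treatment given in the labels, with 1 rat per array. Per the labels, the authors scanned the arrays and extracted them with Agilent Feature Extraction 10.7.1.1; the deposited processed signal is an intensity, background-corrected within the array. The deposited spot flags (well above background, saturated, outlier) were used as given. The authors also deposited a table of log2 values, each array's median being 7.56; how it was normalized is not given in the sources used here, and it served as an alternative. Outlier spots were left out, log2 intensities were averaged per probe, and each array's 75th percentile over non-control spots was subtracted. Probes well above background on all 3 arrays of a group were tested (23747). Limma 3.58.1 in R 4.3.3 was fitted to all 9 arrays (6 residual degrees of freedom), with Benjamini-Hochberg adjustment over all probes; the thresholds (0.05 and an FC of 1.5) are those of the methods. A bound ("at least") sets the bright group's mean against the lowest signal well above background on the dim arrays. The scripts were tested on simulated data. Precision is limited by 3 arrays per group.

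The named genes are all members, the RFX subunits, Cd4, and the 3 genes with the largest fold change in I/R versus Sham of each list. Genes named beyond these (Mif, Ctla4, further genes of the T helper list, and single markers) were chosen after their values were seen. Members and lists were chosen with earlier results of these data known. Symbols were updated through the RefSeq table. Alternatives were quantile or no scaling, normexp background correction (offset 50), the deposited log2 table, other filters, array weights, only the groups compared, the replicate block, the t-test of the methods, and leaving out each array.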

Additional observations from a re-analysis of the deposited data

How the results depend on the processing

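Over all alternatives run no fold change of the 6 members tested turned its sign. In I/R versus Sham all 6 were called under every alternative, also in the model of the 2 groups on their shared slide. When dim probes were kept, 7 were called, Ciita included although it is at background in Sham, and 5 of the 7 after adjustment (RT1-Db1 at 0.0533 and RT1-Bb at 0.0525 missed it). The adjusted p lay close to 0.05: the count after adjustment was 0 without scaling between arrays and ranged from 0 to 6 when an array was left out. It was 0 without DHI 3, I/R 1, I/R 2, Sham 1, Sham 2, or Sham 3.

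In DHI versus I/R the members called numbered 6 with array weights (6 after adjustment; DHI 1 had the lowest weight, 0.09), 0 with the t-test of the methods, and 0 to 6 (0 to 6 after adjustment) when an array was left out. In DHI versus Sham they numbered 4 with array weights (3 after adjustment), 0 with the t-test of the methods, 2 with normexp, 2 among probes well above background on all 9 arrays, 4 with the replicate block, and 0 to 4 when an array was left out.

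Over all probes, 5211 were called in DHI versus I/R, against 11904 with array weights, 469 with the t-test of the methods, 2149 in the model of the 2 groups, and 939 to 10737 when an array was left out. For DHI versus Sham the count was 849, against 3484 with array weights, 448 with the t-test, 1407 without the filter, 1688 without scaling, 1341 with normexp, 1280 with the replicate block, and 344 to 2519 when an array was left out. Without scaling the median of all probes moved from -0.10 to 0.10, from 0.10 to -0.36, and from 0.02 to -0.25 in the 3 comparisons. The cause of these moves was not tested. Arrays with the same replicate number did not deviate together in every pair (r from -0.34 to 0.48). Deviations from a mean of 3 arrays are tied to each other, so these values cannot decide whether the numbers pair the samples. The replicate block changed the DHI versus I/R count from 2 to 3 and the DHI versus Sham count from 1 to 4.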
